A study of Mus musculus with 6 samples.

Results

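The genes of YAP, TEAD and the Hippo pathway were followed through a comparison of mouse colonic organoids cultured with 4-hydroxytamoxifen (4-OHT) or with vehicle. The group held 10 of the 25067 gene rows, chosen by symbol: the coactivators Yap1 and Wwtr1 (which encodes TAZ), the DNA-binding factors Tead1, Tead2, Tead3 and Tead4, the kinase Lats2, the regulators Amotl2 and Ajuba, and the target gene Ankrd1. The rule that picks them uses symbols only, but the list was drawn up with earlier results of these data known. All 10 had a row, and all 10 were among the 13210 genes whose normalized count averaged 10 or more, which were the genes tested.

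Organoids were grown from crypts isolated from C57BL/6 mice, 8 weeks old by the labels, of the genotype Prkcif/fPrkczf/f;Villin-CreERT2. All 6 libraries shared that genotype, in which Prkci and Prkcz, the genes of the atypical protein kinases C (aPKCs), are floxed, and the Villin promoter drives a tamoxifen-inducible Cre in the intestinal epithelium. The organoids received 4-OHT (3 libraries, labelled as the Prkci and Prkcz double knockout) or vehicle, which was ethanol (3 libraries, labelled as wild type), and RNA was taken after 3 days in medium with WNT3A, EGF, Noggin and R-spondin 1. None of the 6 libraries combined 4-OHT with organoids lacking Cre, so the effect of the agent and that of the deletion cannot be told apart. The labels do not say whether the libraries of a group came from separate mice or cultures, and p-values therefore measure the spread between libraries, which may be technical.

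In the Hippo pathway, the kinases MST1 and MST2 (genes Stk4 and Stk3) activate LATS1 and LATS2, which phosphorylate YAP and TAZ and keep them in the cytoplasm. Unphosphorylated YAP and TAZ enter the nucleus, bind TEAD factors at DNA carrying the letters CATTCC, and raise transcription of genes such as Ankrd1, Ccn1 and Ccn2. Several targets, among them Lats2 and Amotl2, encode inhibitors of YAP and so close a feedback loop. In the intestinal epithelium YAP is known for its part in regeneration after injury. The values reported are RNA levels and carry no information on phosphorylation or on where the proteins were in the cell.

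Promoter sequence was read from the RefSeq table of mouse build GRCm38.p6, as windows of 250 bases before to 50 bases after a start site, to show where the letters CATTCC stood in these genes. Of the 10 genes, 8 had a window and 7 of these held CATTCC or its reverse complement GGAATG on the strand read, namely Yap1, Wwtr1, Tead3, Lats2, Amotl2, Ajuba and Ankrd1. The letters were in 14.7% of all 32851 windows and in 14.4% of the 10056 tested genes that had a window. Tead2 held none in its window, and Tead1 and Tead4 had no entry. The following sequences run 5′ to 3′ on the strand of the gene, with the matched letters in capitals. They are shown because they belong to the genes whose levels the comparison turns on and because the matches of Amotl2, Ajuba and Ankrd1 can be seen in their surroundings. Amotl2 and Ankrd1 are given as 30 bases around each match, since part or all of their windows lay within first exons of the GENCODE vM21 annotation. The whole 250 bases before the start are given for Ajuba, Yap1 and Wwtr1, none of which overlapped an exon of the gene itself, and for Ccn1, a target gene that is described with the other targets.
Ankrd1, chr19:36120037-36120066, minus strand, 210 bases before the start: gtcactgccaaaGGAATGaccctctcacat
Ankrd1, chr19:36119950-36119979, minus strand, 123 bases before the start: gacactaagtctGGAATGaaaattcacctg
Amotl2, chr9:102717727-102717756, plus strand, 65 bases before the start: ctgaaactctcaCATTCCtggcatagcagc
Ajuba, chr14:54577662-54577911, minus strand: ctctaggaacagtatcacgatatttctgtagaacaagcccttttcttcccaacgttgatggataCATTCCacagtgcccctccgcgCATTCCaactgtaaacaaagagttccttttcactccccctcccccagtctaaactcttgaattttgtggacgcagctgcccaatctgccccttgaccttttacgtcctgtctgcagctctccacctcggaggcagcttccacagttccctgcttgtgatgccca
Yap1, chr9:8004597-8004846, minus strand: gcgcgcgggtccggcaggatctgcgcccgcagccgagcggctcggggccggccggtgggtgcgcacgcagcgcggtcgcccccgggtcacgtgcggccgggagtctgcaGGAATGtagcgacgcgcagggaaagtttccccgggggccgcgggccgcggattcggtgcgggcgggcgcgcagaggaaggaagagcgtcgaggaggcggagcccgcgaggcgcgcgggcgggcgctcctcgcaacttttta
Wwtr1, chr3:57575911-57576160, minus strand: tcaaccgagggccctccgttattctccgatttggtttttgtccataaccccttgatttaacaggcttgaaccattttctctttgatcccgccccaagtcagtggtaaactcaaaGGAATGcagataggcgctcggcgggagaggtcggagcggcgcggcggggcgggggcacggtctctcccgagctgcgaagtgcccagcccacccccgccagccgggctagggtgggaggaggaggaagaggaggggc
Ccn1, chr3:145649986-145650235, minus strand: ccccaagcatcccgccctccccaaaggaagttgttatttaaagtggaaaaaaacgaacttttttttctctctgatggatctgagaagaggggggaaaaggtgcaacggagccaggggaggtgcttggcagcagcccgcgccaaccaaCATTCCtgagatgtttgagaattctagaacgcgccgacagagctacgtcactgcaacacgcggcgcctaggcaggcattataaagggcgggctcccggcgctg

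Ajuba held 2 matches, 186 and 164 bases before its RefSeq start, and Ankrd1 also held 2. The end of the Ajuba window, past that start, was in no GENCODE vM21 transcript of Ajuba. The same held for Tead2, so those starts rest on RefSeq alone. The single match of Yap1 stood 141 bases before the start and that of Ccn1 at 103. Wwtr1 had 2 overlapping windows, and both contained the same match. In Tead3 2 matches lay 9 bases apart within 30 bases: tccggccgggctCATTCCgtaCATTCCggc (chr17:28350706-28350735, minus strand). The match of Lats2 lay after its start and is not printed. The AP-1 letters TGACTCA, or TGAGTCA on the other strand, which mark sites of a factor family often found beside TEAD, were in 0 of the 8 windowed genes and in 5.20% of all windows. A match is a run of letters and was not examined for binding.

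**Figure D1:**
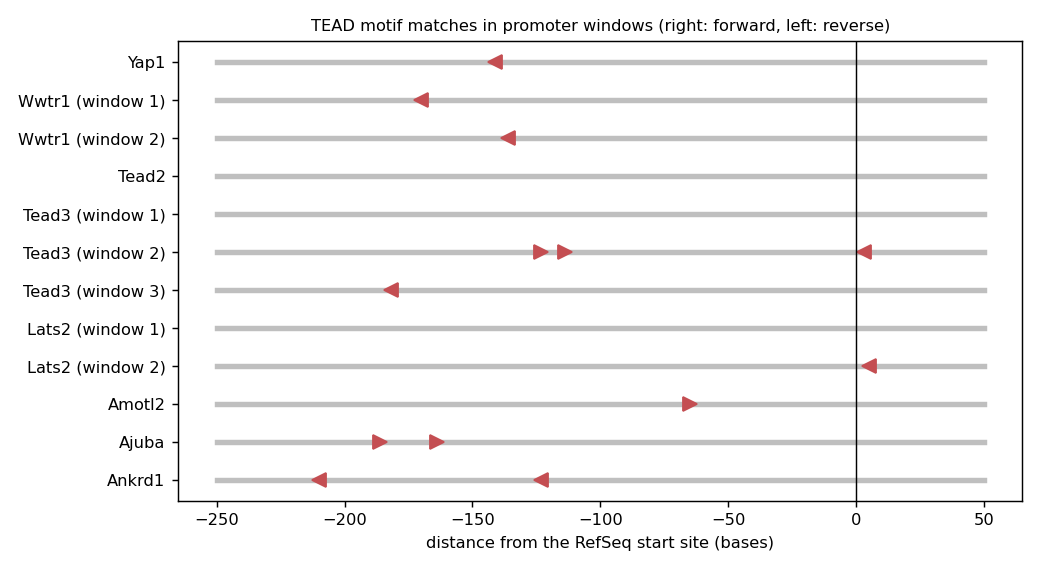
Positions of CATTCC (triangles pointing right) and GGAATG (pointing left) in the RefSeq windows of the 8 genes that have one, in bases from the start site at 0, with one grey line per window. Ajuba and Ankrd1 held 2 matches each, Amotl2 1 match at 65 bases before the start, and Tead2 none.

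The libraries held between 15804709 and 26957612 reads. All 10 markers of colonic epithelium were present in every library, with a summed level of 11700 to 12060 reads per 1000000 in vehicle and 14820 to 15840 in 4-OHT. The targeted gene Prkcz fell from 912 ± 37.9 normalized counts to 281 ± 13.6 (mean ± SD, n = 3 each) and Prkci from 3520 ± 86.9 to 3021 ± 132. Reads of genes that mark other cell types set 4-OHT replicates 2 and 3 apart from the other 4 libraries. The 6 smooth muscle markers summed to 3.22 and 8.18 reads per 1000000 there against 0.147 to 0.727 elsewhere. The 8 Paneth cell and ileal markers summed to 107 and 101 there against 35.8 to 54.8 elsewhere. Much of the latter sum came from Ang4, Lyz1 and Itln1, each with 40 or more reads in every library. Reg3g, Fabp6, Defa24, Defa21 and Mptx2 split the libraries more sharply, with at most 6 reads in any vehicle library or 4-OHT replicate 1. Reg3g had 363 reads in 4-OHT replicate 2 but 123 in replicate 3. In the same order Fabp6 had 120 and 34, Defa24 145 and 176, Defa21 82 and 21, and Mptx2 24 and 36. The 6 fibroblast markers reached 9.71 reads per 1000000 in 4-OHT replicate 3 and at most 1.08 in any other library. Endothelial markers stayed at 0.909 or below in all libraries, and summed immune markers were highest in 4-OHT replicate 2 at 18.4 against 6.80 to 11.3 elsewhere. That sum includes Cd68, with 116 to 299 reads in every library. Igha had 1, 135 and 40 reads in 4-OHT replicates 1, 2 and 3, so replicate 3 also held immunoglobulin reads. Col1a2, Col3a1, Dcn, Lum, Des, Jchain, Igkc and Igha had 0 reads in all vehicle libraries. Values from 4-OHT replicate 1 alone, which lacks most of these reads, are therefore given beside the results that they change. In these bulk libraries fewer cells of a type and less RNA per cell cannot be told apart.

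Most of the 10 genes rose. Of them, 8 were higher in 4-OHT organoids, 0 were lower and 2 did not pass the test (limma-trend on log2 normalized count plus 1, adjusted p under 0.05). Over all tested genes 43.6% passed the test, 22.7% higher and 21.0% lower. The median log2 fold change was 0.33 over the 10 genes and -0.01 over all tested genes. The same 8 genes had all 3 values of 4-OHT above all 3 of vehicle, which held for 26.8% of all tested genes in that direction and for 52.1% in either direction. The log2 fold changes ranged from -0.05 for Tead1 to 2.04 for Ankrd1, and Yap1, Tead4 and Wwtr1 rose by 0.22 or less. With 4-OHT replicate 1 alone against vehicle the log2 fold changes ranged from -0.06 for Tead1 to 1.64 for Ankrd1. Tead2, Amotl2 and Ajuba stood between 0.43 and 0.50 there. Without vehicle replicate 3, 5 of the 10 passed, all higher. In that fit 5160 of the 13210 tested genes passed and 2766 were higher.

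**Figure D2:**
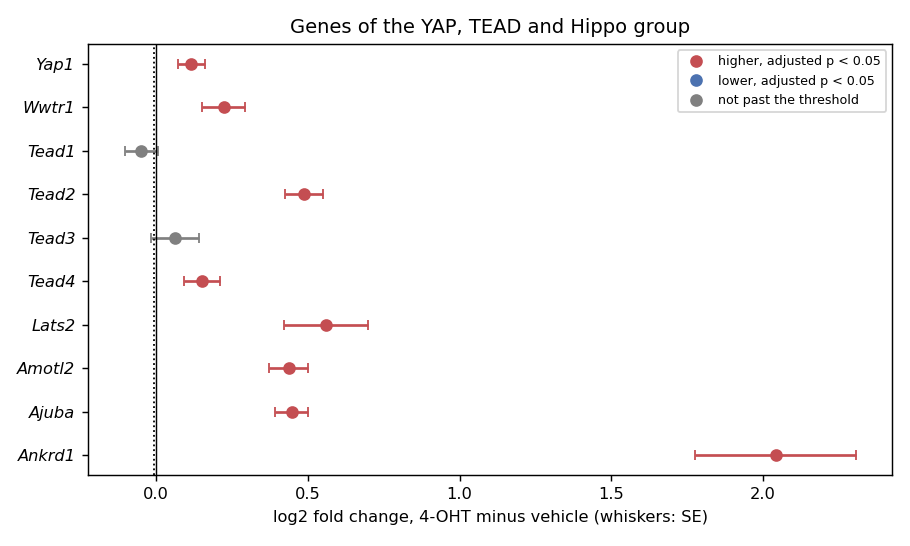
Log2 fold change of each of the 10 genes, 4-OHT minus vehicle, with whiskers for the standard error (SE) of the limma fit; red points passed the test as higher, grey points did not pass, the solid line is 0 and the dotted line the median of all tested genes. Ankrd1 stands apart at 2.04, Tead2, Lats2, Amotl2 and Ajuba lie between 0.44 and 0.56, and Tead1 lies below 0 at -0.05.

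Ankrd1 encodes an ankyrin repeat protein and is a widely used readout of YAP activity. Its normalized count was 28.0, 15.6 and 16.9 in the vehicle libraries and 63.0, 96.4 and 95.6 in the 4-OHT libraries. All 4-OHT values lay above all vehicle values, and the lowest of them came from replicate 1. The means were 20.2 ± 6.80 and 85.0 ± 19.1 (SD, n = 3). On the log2 scale Ankrd1 rose by 2.04 ± 0.26 (SE; limma adjusted p = 3.3e-06), or 4.12-fold. These were few reads, 14 to 30 per vehicle library and 61 to 93 per 4-OHT library. Of all tested genes, 99.8% had a smaller log2 fold change. Ankrd1 is also expressed in muscle, and the part of smooth muscle reads in its rise was not tested. Its level was higher in the 2 libraries with more of those reads. With 4-OHT replicate 1 alone against vehicle its log2 fold change was 1.64 and still passed (limma adjusted p = 0.0107).

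Yap1 and Wwtr1, the transcriptional coactivators at the end of the kinase cascade, rose little. Yap1 had 2974, 2895 and 2977 normalized counts in vehicle and 3177, 3204 and 3202 in 4-OHT. The groups did not overlap and the values within each were close, but the log2 fold change was only 0.12 ± 0.04 (SE; limma adjusted p = 0.041), or 1.08-fold. That call was lost when any 1 of the 6 libraries was left out, with limma adjusted p from 0.0509 to 0.152, and the size fell to 0.07 after quantile normalization (limma adjusted p = 0.194). Wwtr1 had 577, 604 and 531 normalized counts in vehicle and 672, 663 and 661 in 4-OHT. Every 4-OHT library was above the highest vehicle library, and the log2 fold change was 0.22 ± 0.07 (limma adjusted p = 0.015). Without vehicle replicate 3, the lowest library, the value was 0.17 (limma adjusted p = 0.0755), and with 4-OHT replicate 1 alone it was 0.24 (limma adjusted p = 0.107). Against 4-OHT replicate 1 alone Yap1 differed from vehicle by 0.11 (limma adjusted p = 0.196).

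Whether the coactivators moved unequally was examined through the ratio of Wwtr1 to Yap1 within each library. The ratio was 0.194 in vehicle and 0.209 in 4-OHT. The groups overlapped, and the difference of 0.11 on the log2 scale was not distinguishable from the spread between libraries (exact two-sided permutation test, p = 0.3, adjusted over 4 ratios p = 0.4). With 3 libraries against 3 this test cannot give a p below 0.1.

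TEAD1 to TEAD4 are the DNA-binding partners through which YAP and TAZ act, and they have little activity of their own without a coactivator. Tead2, known from embryonic and progenitor cells, rose most among them. Its normalized count was 801, 765 and 723 in vehicle and 1076, 1032 and 1099 in 4-OHT. The lowest 4-OHT library lay well above the highest vehicle library. The log2 fold change was 0.49 ± 0.06 (SE; limma adjusted p = 3.1e-06), or 1.40-fold, and it stayed between 0.45 and 0.52 under all 16 alternatives tried. Tead4 had 1107, 1066 and 1073 normalized counts in vehicle and 1271, 1200 and 1135 in 4-OHT. The groups did not overlap, though 4-OHT replicate 3 came close to vehicle replicate 1, and the log2 fold change was 0.15 ± 0.06 (limma adjusted p = 0.044). The call of Tead4 was lost in 5 of the 6 fits that left out 1 library, all but the one without 4-OHT replicate 3, with limma adjusted p from 0.0646 to 0.171. Against 4-OHT replicate 1 alone the value was 0.23 (limma adjusted p = 0.0334).

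Tead1 and Tead3 did not pass the test. Tead1 had 1456, 1437 and 1391 normalized counts in vehicle and 1368, 1325 and 1453 in 4-OHT, so that the groups overlapped. The log2 fold change was -0.05 ± 0.06 (SE; limma adjusted p = 0.51). Tead3 had 529.9, 558 and 529.0 normalized counts in vehicle and 596, 594 and 504 in 4-OHT. Here 4-OHT replicate 3 was the lowest of the 6 libraries and the other 4-OHT libraries the highest, and the log2 fold change was 0.06 ± 0.08 (limma adjusted p = 0.55).

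Relative to Tead1 in the same library, Tead2 was 0.534 in vehicle and 0.774 in 4-OHT, a difference of 0.53 on the log2 scale or 1.45-fold. The groups were apart, and the exact two-sided permutation test gave p = 0.1, the smallest value it can give (adjusted over 4 ratios, p = 0.2). The ratio of Tead4 to Tead1 differed by 0.20 on the log2 scale with groups apart (exact permutation p = 0.1, adjusted p = 0.2). The ratio of Tead3 to Tead1 differed by 0.11, with overlapping groups (exact permutation p = 0.4, adjusted p = 0.4).

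**Figure D3:**
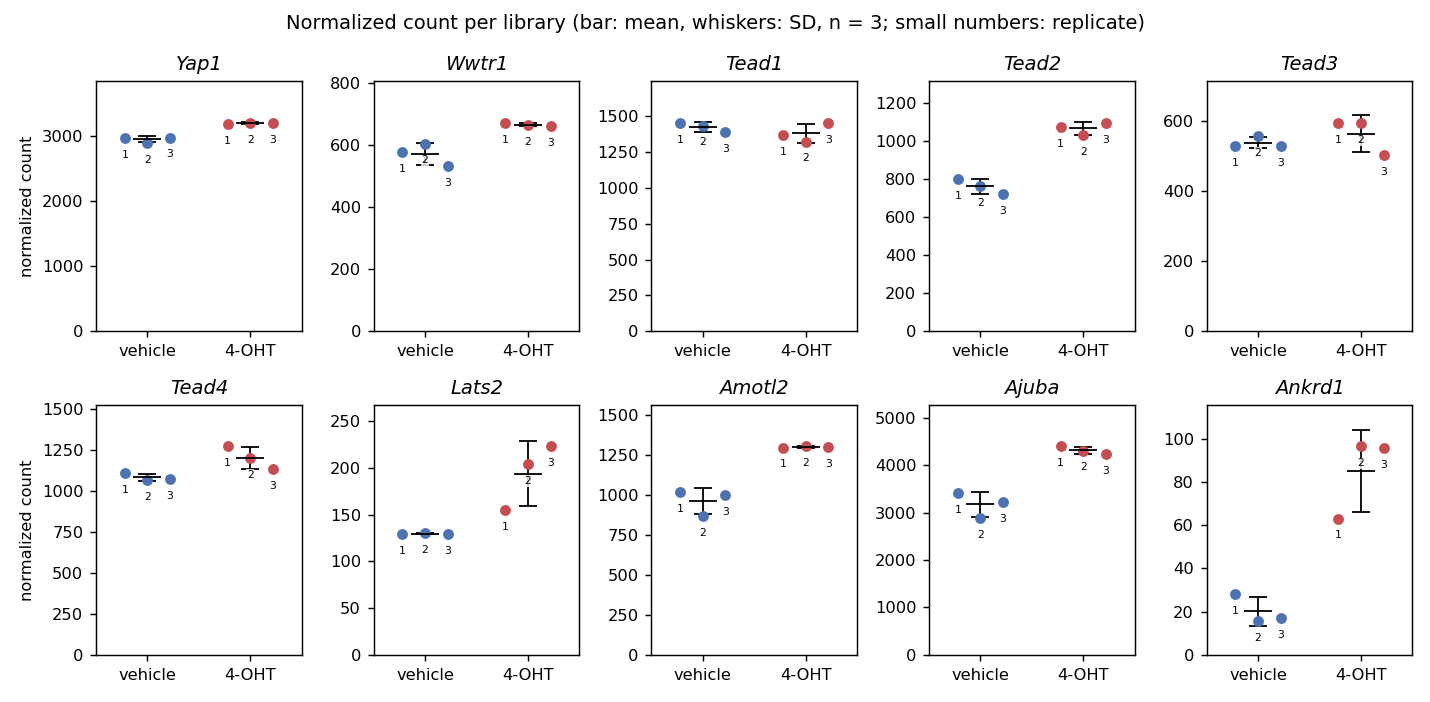
Normalized count of each of the 10 genes in each of the 6 libraries, on linear axes from 0, with replicate numbers under the points, bars for the mean and whiskers for the SD (n = 3). The 2 groups are apart in all genes but Tead1 and Tead3; Lats2 and Ankrd1 are lowest among the 4-OHT libraries in replicate 1.

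Lats2 encodes the kinase that phosphorylates YAP and TAZ. It had 129.7, 130.5 and 129.5 normalized counts in vehicle and 155, 204 and 223 in 4-OHT. The vehicle libraries were nearly equal, while the 4-OHT libraries were spread out, all above vehicle, with replicate 1 lowest. The log2 fold change was 0.56 ± 0.14 (SE; limma adjusted p = 0.0027). Against 4-OHT replicate 1 alone it was 0.25 and did not pass (limma adjusted p = 0.322). The 2 libraries with the higher Lats2 were those with more smooth muscle, Paneth cell and ileal reads, and the part of these reads in the result was not tested. In GENCODE vM21, 42.4% of the exon bases of Lats2 are shared with Gm49361, another gene on the same strand, so how the reads were divided between them is uncertain.

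Amotl2 and Ajuba rose by similar amounts. Amotl2 encodes an angiomotin-like protein that binds YAP at cell junctions and is also a YAP target. It had 1021, 871 and 1002 normalized counts in vehicle and 1299, 1306 and 1305 in 4-OHT. The SD was 3.92 among the 4-OHT libraries and 81.6 among the vehicle libraries (n = 3), a difference that was not tested. The groups were apart. The log2 fold change was 0.44 ± 0.06 (SE; limma adjusted p = 1.4e-05), or 1.35-fold. Ajuba encodes a LIM-domain protein that binds and inhibits LATS kinases. It had 3404, 2883 and 3231 normalized counts in vehicle and 4397, 4311 and 4240 in 4-OHT. The groups were apart again, and the log2 fold change was 0.45 ± 0.05 (limma adjusted p = 1.3e-06), or 1.36-fold. Across all 16 alternatives Amotl2 ranged from 0.37 to 0.48 and Ajuba from 0.38 to 0.50, and both passed in each.

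To set the genes beside each other, the normalized counts were divided by the length of each gene's merged exons in GENCODE vM21. On this scale, normalized counts per kilobase in vehicle, Ajuba was highest at 870 ± 72.9 (SD, n = 3), followed by Yap1 at 319 ± 5.03 and Tead4 at 301 ± 6.09. Tead2 at 159 ± 8.23 and Amotl2 at 153 ± 13.0 came next, and the ranges of these 2 overlapped. Wwtr1 at 119 ± 7.70, Tead1 at 105 ± 2.47 and Tead3 at 80.3 ± 2.48 followed. Lats2 at 18.6 ± 0.0764 and Ankrd1 at 6.99 ± 2.35 were lowest. No other neighbours in this order overlapped in range. In 4-OHT the order of the first 8 was the same, but the ranges of Yap1 at 345 ± 1.64 and Tead4 at 334 ± 18.9 overlapped, and Ankrd1 at 29.5 ± 6.60 stood beside Lats2 at 27.8 ± 5.05, also with overlapping ranges.

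Among the 4 TEAD genes, on the same scale per kilobase, Tead4 had the largest share of the summed level, 46.6% ± 0.692 in vehicle and 44.9% ± 1.37 in 4-OHT (SD, n = 3). Tead2 made up 25.3%, 24.8% and 24.0% in the vehicle libraries and 29.3%, 29.3% and 31.6% in the 4-OHT libraries, with the groups apart. The share of Tead1 was 16.3% ± 0.0964 in vehicle and 13.7% ± 0.879 in 4-OHT, and that of Tead3 was 12.4% ± 0.480 and 11.3% ± 0.879. The merged exons span all annotated isoforms, so the order of genes depends on which isoforms the organoids used. It also assumes that reads cover whole transcripts, which was not examined. Undivided by length, Tead1 was the highest TEAD gene in vehicle at 1428 normalized counts, against 1082 for Tead4.

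The rest of the pathway was described through lists of its known components. In the core kinase cassette (Stk3, Stk4, Sav1, Mob1a, Mob1b, Lats1 and Lats2), 4 of 7 tested genes were higher and 0 lower, with a median log2 fold change of 0.17, against 22.7% higher and 21.0% lower over all tested genes. Leaving out Lats2, already described, 3 of 6 were higher and the median was 0.15. Stk3, which encodes the kinase MST2, rose from 580 ± 19.8 to 732 ± 29.4 normalized counts (SD, n = 3), with all 4-OHT libraries above vehicle (log2 fold change 0.34, limma adjusted p = 4.9e-04). Stk4, which encodes MST1, rose by 0.17 (limma adjusted p = 0.016), and Sav1, their scaffold, by 0.19 with overlapping groups (limma adjusted p = 0.038). The call of Sav1 was lost without vehicle replicate 1 or 3 and without 4-OHT replicate 1 or 3 (limma adjusted p from 0.0873 to 0.171), against 4-OHT replicate 1 alone (limma adjusted p = 0.0917) and with DESeq2 (adjusted p = 0.0693). That of Stk4 was lost without vehicle replicate 1 (limma adjusted p = 0.0677), without 4-OHT replicate 3 (limma adjusted p = 0.105) and against 4-OHT replicate 1 alone (limma adjusted p = 0.231). Lats1 did not pass at -0.08 (limma adjusted p = 0.26), nor did the LATS coactivators Mob1a at 0.03 and Mob1b at 0.13. Without vehicle replicate 1, or without 4-OHT replicate 3, 2 of the 7 passed. In these fits 4955 and 5040 of the 13210 tested genes passed. With 4-OHT replicate 1 alone against vehicle, Stk3 stood at 0.27, Sav1 at 0.23, Stk4 at 0.11 and Lats2 at 0.25. The calls of Stk3 and Lats2 were lost there as well.

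Upstream of the cassette, 31 regulators were listed and 29 tested, Fat4 and Dchs1 having too few reads. Of the 29, 11 were higher and 4 lower, and the median log2 fold change was 0.12. These 15 calls among 29 genes were close to the share over all tested genes, of which 43.6% passed. Leaving out Amotl2 and Ajuba, 9 of 27 were higher and 4 lower, with a median of 0.10. Against 4-OHT replicate 1 alone 13 of the 29 passed, where 27.0% of all tested genes did. The highest was Map4k4, a kinase that can phosphorylate LATS in parallel with MST1 and MST2. It had 3711, 3727 and 3828 normalized counts in vehicle and 6272, 5619 and 5997 in 4-OHT, with the groups far apart (log2 fold change 0.67, limma adjusted p = 1.2e-09). Amotl1, a second angiomotin-like gene, rose by 0.49 (limma adjusted p = 2.6e-07), while the related Amot stood at 0.08 and did not pass (limma adjusted p = 0.30). Not all kinases of the Map4k family moved the same way. Map4k1, known from blood cells, fell from 61.4 ± 6.66 to 34.9 ± 1.71 normalized counts (log2 fold change -0.79, limma adjusted p = 0.0050) and Map4k2 from 240 ± 23.2 to 164 ± 8.60 (-0.54, limma adjusted p = 7.2e-04). Taok2, a kinase acting on MST1 and MST2, fell by 0.16 on the log2 scale (limma adjusted p = 0.013), a call that was lost against 4-OHT replicate 1 alone (-0.13, limma adjusted p = 0.156).

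Most of the genes listed for retention and turnover of YAP in the cytoplasm rose. Of 10 tested genes, 8 were higher and 0 lower, against 22.7% higher and 21.0% lower over all tested genes, with a median log2 fold change of 0.24 and a range from 0.08 to 0.38. Against 4-OHT replicate 1 alone 6 of the 10 passed, where 27.0% of all tested genes did. They encode the adaptor proteins of the YWHA family, which bind phosphorylated YAP, and the casein kinases and ubiquitin ligase subunits that lead to its degradation, and all also serve many other proteins. Ywhah rose from 6972 ± 233 to 9055 ± 360 normalized counts (SD, n = 3; log2 fold change 0.38, limma adjusted p = 1.1e-06). Csnk1e rose by 0.38 and Ywhag by 0.29 (limma adjusted p = 1.3e-05 and 7.5e-06), the latter by 0.17 after quantile normalization. Ywhae at 0.10 and Btrc at 0.08 did not pass. None of the 6 genes of this list with a promoter window held the CATTCC letters, which only 14.4% of the tested genes with a window held.

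The vestigial-like cofactors, which bind TEAD factors, moved in opposite directions. Vgll1 and Vgll2 had no row among the gene rows and so were not analysed. Vgll3 had 73.7, 88.7 and 93.2 normalized counts in vehicle and 182, 141 and 151 in 4-OHT. All 4-OHT values were above vehicle (log2 fold change 0.88, limma adjusted p = 9.2e-05). Vgll4, which encodes an inhibitor of YAP-driven transcription, fell from 2278 ± 118 to 2043 ± 38.5 (SD, n = 3; log2 fold change -0.16, limma adjusted p = 0.018). The call of Vgll4 was lost without vehicle replicate 2 (-0.16, limma adjusted p = 0.0517), without vehicle replicate 3 (-0.12, limma adjusted p = 0.0873) and with 4-OHT replicate 1 alone (-0.13, limma adjusted p = 0.201).

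**Figure D4:**
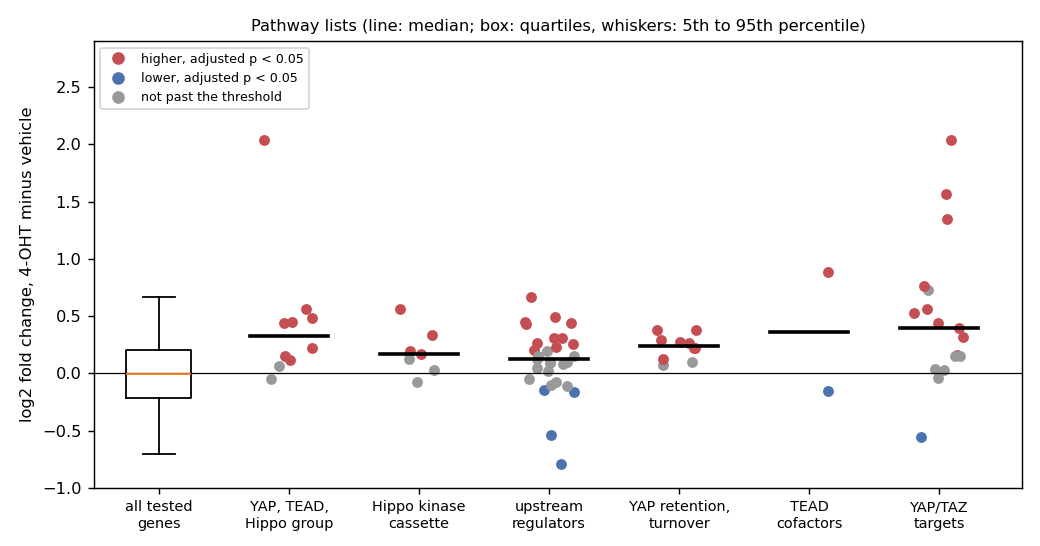
Log2 fold change, 4-OHT minus vehicle, of the tested genes in each list (points, red for higher, blue for lower, grey for not past the test) with the list's median as a black line, beside all 13210 tested genes (box for quartiles, whiskers for the 5th and 95th percentiles). The medians were 0.33, 0.17, 0.12, 0.24, 0.36 and 0.40 from left to right, against -0.01 for all tested genes; some genes are in more than one list.

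YAP and TAZ target genes were described with a list of 22 conserved targets, which includes Ankrd1, Amotl2 and Lats2. Of these, 17 were tested and 5 (Fjx1, Foxf2, Ccdc80, Tgfb2 and Rbms3) had a mean normalized count under 10. Of the 17, 10 were higher, 1 was lower and 6 did not pass, against 22.7% higher and 21.0% lower over all tested genes. The median log2 fold change was 0.40. Without Ankrd1, Amotl2 and Lats2, 7 of 14 were higher and 1 lower, with a median of 0.24. Against 4-OHT replicate 1 alone, 9 of the 17 passed, where 27.0% of all tested genes did.

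Ccn1, which encodes a secreted matrix protein, had the smallest adjusted p of the list. It had 628, 665 and 722 normalized counts in vehicle and 1633, 1816 and 1693 in 4-OHT. No 4-OHT library came near the vehicle range, and the log2 fold change was 1.35 ± 0.06 (SE; limma adjusted p = 6.9e-12), or 2.55-fold. Igfbp3, a secreted binder of insulin-like growth factors, had 87.7, 75.9 and 76.3 normalized counts in vehicle and 162, 268 and 309.6 in 4-OHT. As for Lats2 and Ankrd1, 4-OHT replicate 1 was the lowest of its group. The log2 fold change of Igfbp3 was 1.57 ± 0.18 (limma adjusted p = 8.4e-07), and 1.02 against 4-OHT replicate 1 alone (limma adjusted p = 0.0045).

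Nt5e, which encodes the ectonucleotidase CD73, was the single target that fell. It had 457, 503 and 360 normalized counts in vehicle and 226, 353 and 323 in 4-OHT. The groups were narrowly apart, with 4-OHT replicate 1 lowest, and the log2 fold change was -0.56 ± 0.14 (SE; limma adjusted p = 0.0027). Without 4-OHT replicate 1 it was -0.37 (limma adjusted p = 0.0142), and against that library alone it was -0.94 (limma adjusted p = 0.0016). DESeq2 did not call Nt5e. The other targets past the test, Ccn2, F3, Myof, Gadd45a and Asap1, were not chosen by the rule for named genes and rose by between 0.16 and 0.77. Axl at 0.72 had 3 libraries above vehicle but did not pass (limma adjusted p = 0.060).

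**Figure D5:**
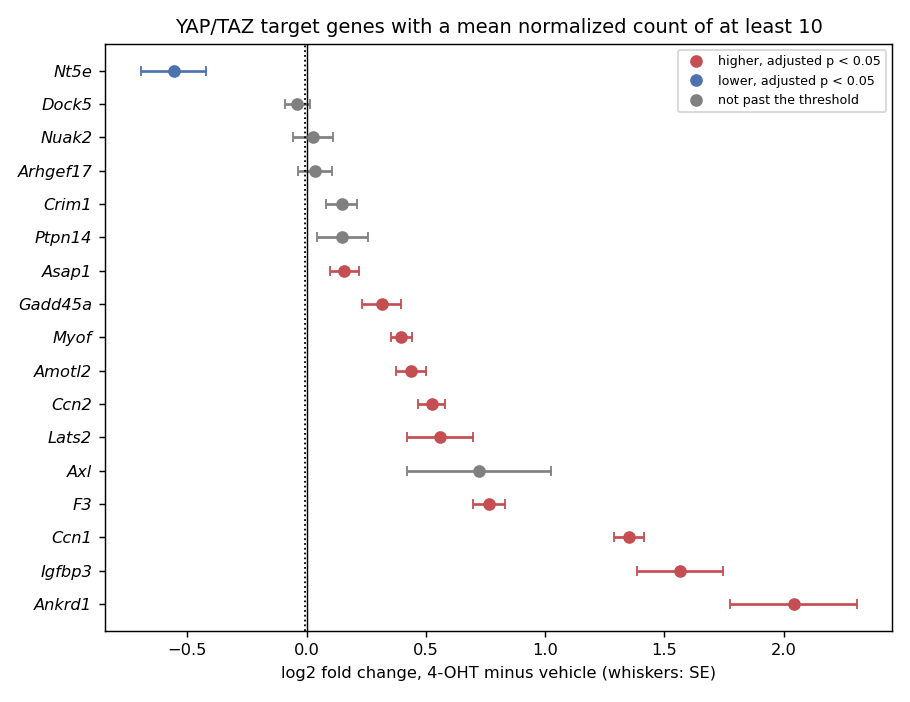
Log2 fold change, 4-OHT minus vehicle, of the 17 tested target genes, ordered by size, with whiskers for the SE of the limma fit (red higher, blue lower, grey not past the test; the dotted line is the median of all tested genes). Ankrd1, Igfbp3 and Ccn1 lie at 2.04, 1.57 and 1.35, and Nt5e at -0.56.

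Of the 22 targets, 15 had a promoter window under their own symbol, and 7 of these held CATTCC or GGAATG (Amotl2, Lats2, Ccn1, Ankrd1, Axl, Crim1 and Ptpn14). Among the called targets, Igfbp3, F3, Myof and Gadd45a, which rose, and Nt5e, which fell, held none in their windows. In the kinase cassette 3 of 6 genes with a window held the letters. Over all tested genes with a window the share was 14.4%. Enhancers, where TEAD factors are known to bind most often, lie outside these windows and were not examined.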

How the data were processed

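RNA of 6 libraries was analysed as deposited. The authors deposited normalized counts per gene, a signal obtained by dividing read counts by 1 size factor per library and not corrected for gene length. Their processing notes name STAR, DESeq2 and the build GRCm39 (mm39) without roles or versions. The counting tool, its strand setting and the annotation are not given in the sources used here. All values (100%) were whole multiples of 1 step per library within 0.1 reads, so whole reads were recovered.

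Groups came from the sample labels. Differences were tested with limma-trend (limma 3.58.1, R 4.3.3) on log2(normalized count + 1), which understates changes of low genes, over the 13210 genes averaging 10 or more, with Benjamini-Hochberg adjustment over all of them and a threshold of 0.05. The test was checked on simulated data. Ratios between paralogs were compared by exact two-sided permutation tests. Alternatives were pseudocounts of 0.1 and 10, no filter, a mean of at least 50, TMM factors, quantile normalization, a replicate block, each library left out, and edgeR 4.0.16 and DESeq2 1.42.0 on recovered reads. The comparison of 4-OHT replicate 1 alone with vehicle was added after seeing the data, and assumes that this library varies as vehicle libraries do.

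The 10 genes and the pathway lists were chosen with earlier results of these data known. Named genes were the 10, Prkci and Prkcz, and from each list every gene past the threshold where there were 6 or fewer, otherwise up to 3 called genes at each end of the ranked log2 fold changes. Other genes named in the text, such as Lats1, Amot and Axl, fall outside that rule and were named after their values were seen. A count of 3 reads is the smallest a library was taken to show, which covers counting error only. Exon lengths and overlaps came from GENCODE vM21 and promoters from RefSeq, both on GRCm38 builds, which differ from the build of the deposited values.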

Additional observations from a re-analysis of the deposited data

How the results depend on the processing

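Under 16 other ways of processing the values, 1 of them added after seeing the data, no gene named by rule changed direction, and 408 of 447 values of the 28 such genes kept both direction and side of the threshold. The other 39 lost their call, Yap1 in 11 and Tead4 in 9 alternatives. With 1 library left out, 4939 to 5630 of the 13210 tested genes passed. In those fits the number of the 10 genes past the test was 5 to 7, that of the kinase cassette 2 to 4 and that of the TEAD cofactors 1 to 2. With 4-OHT replicate 1 alone against vehicle these were 5, 0 and 1, and 3569 genes passed over all tested genes in place of 5765, with fewer samples in the fit. The libraries share replicate numbers, but same-numbered libraries did not deviate together (correlations -0.01, 0.03 and -0.02 over genes). Pairing by number was thus not seen, but these values cannot exclude it, since the labels do not give the origin of the libraries. With the replicate block 5637 genes passed, and Yap1 (limma adjusted p = 0.0811) and Tead4 (limma adjusted p = 0.0576) did not. DESeq2 also left out Yap1 (adjusted p = 0.0509) and Tead4 (adjusted p = 0.0713), whereas edgeR called all 8. Depth limits Ankrd1 most, at 14 to 30 reads per vehicle library.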
